A study of Homo sapiens with 2 samples.

Results

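Regions of H3K4me3 that were called in wild-type HEC-1-B cells and also in the ZNF143 knockout, and whose enrichment over local background was lower in the knockout, are described here. Regions on chromosomes 1 to 22 were paired where they overlapped by 1 bp or more with exactly 1 partner in each direction. Pairs entered with a −log10 q-value (column 9 of the deposited lists) of 10 or more in both lists, which left 14405 pairs. For each pair the authors' fold over local background (column 7) in the knockout was divided by that in wild type, and then by the median ratio of all pairs, 0.966. The members were chosen by this measured ratio alone: pairs with a centred ratio of 0.75 or less. There were 443, which is 3.08% of the pairs (95% interval 2.80 to 3.37%). Pairs with a centred ratio above the inverse of the cut, the same factor in the opposite direction, numbered 413, or 2.87%.

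HEC-1-B is an established cell line from a human endometrial adenocarcinoma. H3K4me3 ChIP-seq (chromatin immunoprecipitation and sequencing) gave 1 library from wild-type cells and 1 from cells labelled ZNF143KO, with the same antibody, line and culture medium. Clone and edited allele are not given in the sources used here. With 1 library per genotype nothing below has a replicate check, and no test between genotypes was made. Since fold chose the members, fold and all values from the same contrast are descriptions.

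H3K4me3 is trimethylation of lysine 4 on histone H3. It is laid down by SET1 and MLL methyltransferase complexes and is concentrated at the start sites of active genes, where its peaks often flank a nucleosome-poor promoter. ZNF143 is a zinc-finger transcription factor that binds a long DNA motif found mostly in promoters close to start sites, and it is known for driving small nuclear RNA genes and many housekeeping genes. The study's title names loops between enhancers and promoters under its deletion. Positions are hg19, counted from 1, and are those of the wild-type region unless stated. Genes, motifs and cell type markers were not assigned to regions, because the gene table used here is of another build (GRCh38.p14).

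The fold of a region is the number of fragments stacked at its summit (the pileup, plus 1) over a local background rate (plus 1), and both parts were recovered from the deposited columns. The knockout library was the deeper: its median pileup over all pairs was 488 fragments against 263 in wild type, and the median knockout to wild-type pileup ratio was 1.86. The local rate had a median ratio of 2.01. Log2 ratios below are centred on these medians, so 0 stands for the typical pair. Intervals on pileups are exact Poisson 95% intervals that cover counting error only.

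Most members were weak regions in wild type. Their wild-type fold had a median of 11.4 (3.04 to 36.8) and their knockout fold one of 6.83 (2.00 to 23.1), and the centred ratio ran from 0.291 to 0.75 with a median of 0.671. Wild-type pileup ran from 17 to 602 fragments, with a median of 48 against 271 in the other pairs. Knockout pileup ran from 23 to 1088, with a median of 44 against 503 in the other pairs. In the 413 pairs of higher knockout fold the medians were 27 in wild type and 109 in the knockout. In 138 members (31.2%) the knockout pileup was below the wild-type pileup even without centring, although the library was deeper. The same held for 131 of the 13962 other pairs (0.938%).

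The share of members depended on the strength of the wild-type region. In the decile of pairs with the lowest wild-type pileup, 16 to 40 fragments, 13.3% (11.5 to 15.1%) were members. In the fifth decile, 202 to 263 fragments, the share was 1.94% (1.29 to 2.80%), and in the highest decile 0.208% (0.0430 to 0.607%). Weak pairs also scattered more in both directions. In the lowest decile the middle 50% of pairs spanned 0.56 on the log2 scale of the fold ratio and the counting SD of the log2 pileup ratio had a median of 0.36, while the cut lies at −0.42. In the highest decile these values were 0.12 and 0.077. The part of counting error in membership was not tested. Toward higher fold the lowest decile held more pairs than toward lower fold, 19.6% (17.6 to 21.8%). From the second decile on the share was larger toward lower fold, in the fifth decile 1.94% against 0.347% (0.113 to 0.808%). Wild-type pileup both sets these deciles and enters the denominator of the ratio. By knockout pileup the order was the opposite in the lowest decile, 20.1% toward lower and 9.09% toward higher fold. It was also the opposite in the second, 5.28% and 10.1%, and in the fifth, 0.555% and 0.902%. In none of deciles 2 to 9 of knockout pileup was the share larger toward lower fold.

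**Figure D1:**
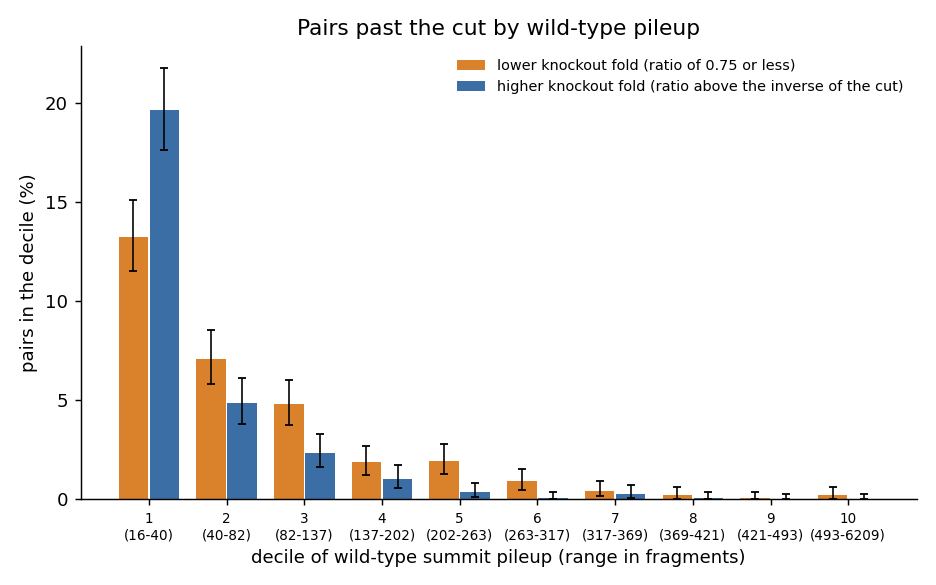
Share of pairs past the cut (y axis, %) in each decile of wild-type summit pileup (x axis, range in fragments), for lower and higher knockout fold, with exact 95% intervals. Shares toward lower fold go from 13.3% in the lowest decile to 0.208% in the highest.

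A lower fold can come from a lower summit or from a higher local rate, and the members held both. The centred pileup ratio was below 1 in 418 of 443 members (94.4%) and at 0.75 or less in 370 (83.5%), against 9.75% of all pairs at 0.75 or less. Its log2 median was −0.73, with quartiles of −1.0 and −0.54. The local rate ratio was close to that of the typical pair, with a log2 median of 0.085 and quartiles of −0.21 and 0.21. In 186 members (42.0%) the knockout rate stood at the lowest rate of the library, the genome background of 3.25 fragments, compared with 3.53% of the other pairs. In wild type 22.6% of members stood at the genome background of 1.40 fragments, compared with 4.09% of the others. In the 413 pairs of higher knockout fold these shares were 13.3% in the knockout and 42.4% in wild type. A pair with both rates at these backgrounds has a log2 rate ratio of 0.21, which is the upper quartile given above.

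**Figure D2:**
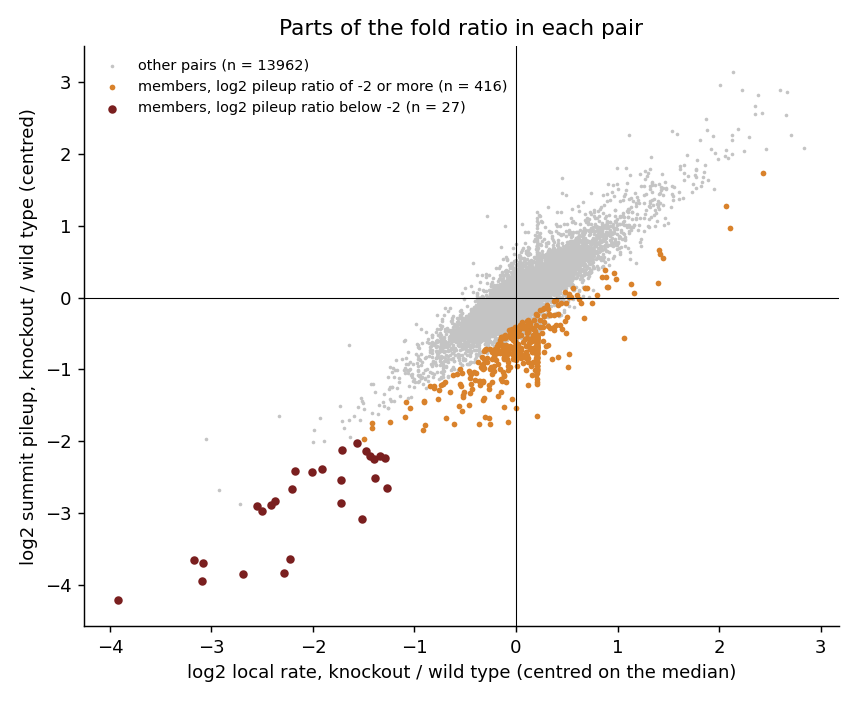
Log2 knockout to wild-type ratio of the summit pileup (y axis) against that of the local rate (x axis), both centred on the median of all pairs, 1 point per pair. Members lie along the lower right edge of the cloud, and 27 of them have a log2 pileup ratio below −2.

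The far end of the set was formed by 27 members whose log2 pileup ratio was below −2. Their knockout to wild-type pileup ratio was thus more than 4-fold below that of the typical pair. This threshold was set after the values were seen. It was passed by 30 of all 14405 pairs (0.208%), and 28 pairs were above 2 in the opposite direction. In wild type these 27 regions had a median pileup of 214 fragments (63 to 556), against 271 in the pairs that are not members. Their median width was 1017 bp against 1034 bp. Their wild-type fold was higher, with a median of 18.84 (12.88 to 24.95) against 13.04. Wild-type fold is the denominator of the ratio that chose the members, and the knockout −log10 q had to stay at 10 or more. The wild-type fold and pileup of the 27 are thus in part set by the selection. Their wild-type local rate was lower than in those pairs, with a median of 10.41 against 20.05. Another wild-type region lay within 2 kb of 1 of the 27 (3.7%), against 27.6% of the pairs that are not members. In the knockout the pileup was 25 to 121 fragments with a median of 53. The ranges of the 2 genotypes overlap, while the threshold itself requires fewer knockout than wild-type fragments in each region. The local rate was lower as well, with a log2 median of −2.01, so that the fold understated the difference in pileup.

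The largest difference in pileup was at chr3:50328748-50329878. Its wild-type pileup was 556 fragments (511 to 604) and its knockout pileup 56 (42.3 to 72.7), a log2 ratio of −4.21. The fold was 15.8 in wild type and 10.2 in the knockout, a centred ratio of 0.672, and the local rate was 34.3 in wild type and 4.56 in the knockout. Next was chr2:37551095-37552460 with 241 fragments (212 to 273) and 29 (19.4 to 41.6), and the centred fold ratio there was 0.448. At chr8:63950774-63951790 the counts were 255 (225 to 288) and 33 (22.7 to 46.3). At chr15:52043577-52044425 they were 192 (166 to 221) and 25 (16.2 to 36.9), which gave the lowest centred fold ratio of all members, 0.291. The region chr16:30786785-30787718 had 258 (227 to 291) and 38 (26.9 to 52.2). In each of these 5 regions the 2 counting intervals were far apart. These regions were named for their low pileup ratios, so at such counts the separation follows from the choice. Outside the region on chromosome 3, the knockout rate in these regions equalled the genome background of 3.25. Smaller wild-type counts stood at chr8:224066-224683, with 91 (73.3 to 112) and 27 (17.8 to 39.3) and a centred fold ratio of 0.365.

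**Figure D3:**
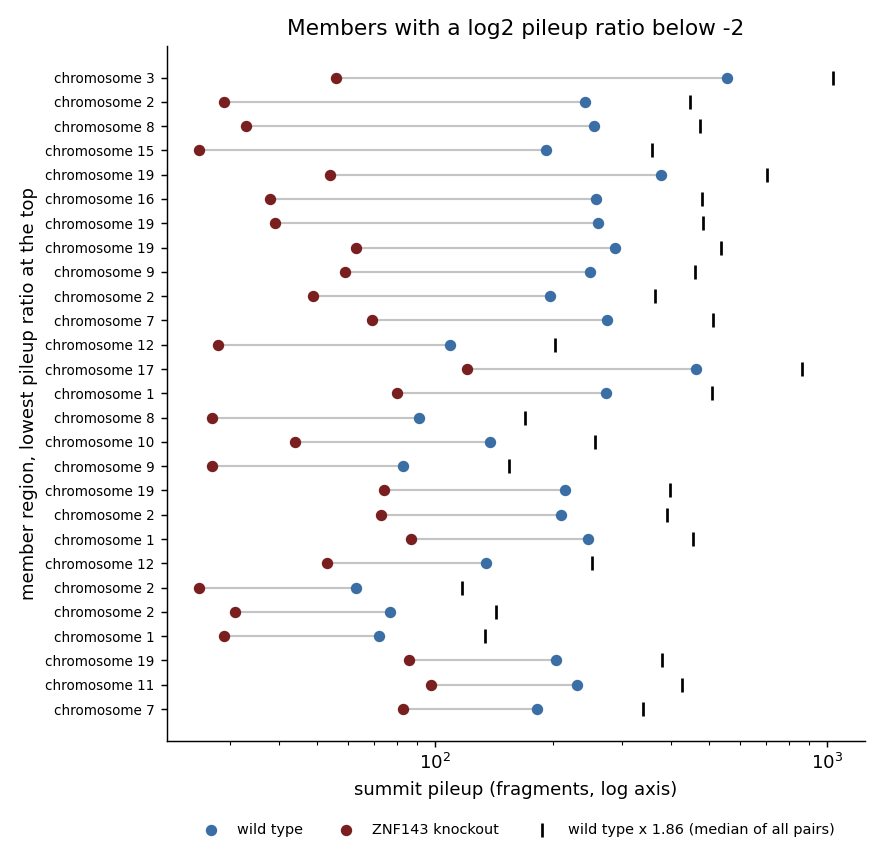
Summit pileup (x axis, fragments, log axis) of the 27 members with a log2 pileup ratio below −2 in wild type and knockout, 1 row per region, with a tick at 1.86 times the wild-type pileup, where the typical pair lies. Knockout values run from 25 to 121 fragments and wild-type values from 63 to 556, and the threshold places each knockout value to the left of its wild-type value.

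Several of these regions lay in a single stretch of chromosome 19, with other pairs between them. Between 44488285 and 44861280, 4 members were found, and all regions of that stretch are given here. The first, chr19:44506726-44507903, had 377 fragments (340 to 417) in wild type and 54 (40.6 to 70.5) in the knockout. The second, chr19:44645287-44646233, had 97 and 62 and is not one of the 27. The third, chr19:44711650-44712146, had 288 (256 to 323) and 63 (48.4 to 80.6), and the fourth, chr19:44860247-44861280, had 260 (229 to 294) and 39 (27.7 to 53.3). The log2 pileup ratios were −3.70, −1.54, −3.09 and −3.63, and the centred fold ratios 0.539, 0.681, 0.318 and 0.328.

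Between these members lay pairs close to the typical ratio. At chr19:44598147-44599517 the pileup was 366 in wild type and 616 in the knockout, at chr19:44669222-44669925 it was 324 and 585, and at chr19:44808413-44809211 it was 354 and 699. Their log2 pileup ratios were −0.14, −0.043 and 0.087. A further pair at chr19:44716652-44717463 just beyond the third member had 483 and 353 fragments and a log2 ratio of −1.35. Its centred fold ratio was 0.922, so the rule did not take it. The wild-type region chr19:44488285-44488919, with 79 fragments and a fold of 22.9, had no knockout region at all. The 2 regions chr19:44616986-44617309 and chr19:44617538-44618360, with 135 and 353 fragments in wild type, had no one-to-one partner. Members and pairs at the typical ratio thus alternated, and the difference was not shared by all regions of the stretch.

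Members with a low pileup and no other pair between them were found on the same chromosome and on chromosome 7. At chr19:35167813-35169070 the pileup was 204 in wild type and 86 in the knockout, and at chr19:35224519-35225564 it was 214 and 74. No other wild-type region was called between them. On chromosome 7, chr7:148637725-148638785 had 275 and 69 fragments and chr7:148684600-148685296 had 182 and 83. Both wild-type regions between these, chr7:148659938-148660375 with 74 fragments and chr7:148663791-148663964 with 14, had no knockout region. In the order of pairs, 4 of the 27 (14.8%) were thus next to another of the 27, and none of the 27 was next to one of the remaining 416 members. The other 50 adjacent pairs, outside the 27 by definition, had a median log2 pileup ratio of −0.039 (quartiles −0.27 and 0.13, range −1.35 to 1.29), and in 6 of them the centred pileup ratio was 0.75 or less. The median gap to them was 50.9 kb.

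The remaining 416 members have smaller differences in pileup by definition, and a region of low wild-type pileup can hardly pass the threshold of the 27. Their wild-type pileup had a median of 44.5 fragments (17 to 602) and their knockout pileup one of 44, and the log2 pileup ratio had a median of −0.71. Of the 12 members with the lowest centred fold ratio, 6 belonged to this group. At chr7:149468985-149469233 the fold was 9.08 in wild type and 2.98 in the knockout. The pileup there was 79 (62.5 to 98.5) and 100 (81.4 to 122), so the pileup ratio was only moderately below that of the typical pair. The local rate was 7.81 in wild type and 32.9 in the knockout. At chr4:185264701-185265146 the pileup was 44 and 26, at chr20:3761801-3762085 it was 69 and 38, and at chr1:247611175-247611534 it was 68 and 38. The last 2 of the 12 were chr11:59333209-59333661, with 46 and 44 fragments, and chr1:29609865-29610496, with 36 and 23. In these 5 regions fewer fragments were stacked in the knockout than in wild type, and the Poisson intervals overlapped in each of them except the one on chromosome 20 and the first one on chromosome 1. These counts are not centred, while the median ratio of knockout to wild-type pileup over all pairs was 1.86. The centred log2 pileup ratios of the 5 regions ran from −1.76 to −0.96.

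In 25 members the centred pileup ratio was not below 1. With the lower fold ratio that the rule asks for, their centred rate ratio is above 1 by definition. Their log2 pileup ratio had a median of 0.20 and their log2 rate ratio one of 0.90 (0.49 to 2.43). The clearest was chr11:79148288-79149030, where the pileup was 42 (30.3 to 56.8) in wild type and 261 (230 to 295) in the knockout. The local rate was 4.03 and 43.6, and the fold was 8.54 and 5.88. At chr3:12328792-12329838 the pileup was 106 and 478 and the knockout region was 1621 bp wide against 1047 bp in wild type. At chr17:81036876-81037371 it was 46 and 167, with widths of 496 and 1817 bp. These regions are members by fold although their summits were higher in the knockout. Of the 25, 13 had another knockout region within 2 kb, a share of 52.0% (31.3 to 72.2%), compared with 29.0% of the pairs that are not members. In the wild-type list the shares were close to these, 48.0% (12 of 25) and 27.6%.

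By significance, the 8 members with the highest wild-type −log10 q were mixed in the same way. At chr3:50387561-50388961 the −log10 q was 577 in wild type and 883 in the knockout. The ratio of its pileups, 602 and 1088 fragments, was close to that of the typical pair, with a log2 ratio of −0.041, and the local rate was 25.2 and 65.4. The same pattern was seen at chr19:46365468-46366448, with 535 and 1026 fragments, where the width was 981 bp in wild type and 1951 bp in the knockout. At chr17:25783115-25784110 the pileup of 399 and 562 was below the typical ratio, with a log2 ratio of −0.40, and the log2 rate ratio was 0.042. Fewer fragments than in wild type were stacked at chr17:40949890-40950780, with 464 fragments (423 to 508) in wild type and 121 (100 to 145) in the knockout and a −log10 q of 449 and 97.9. The same held at chr5:118788127-118789006, with 369 and 328, and at chr8:75262420-75263237, with 310 and 160. The other two of the 8 are chr3:50328748-50329878 and chr19:44506726-44507903, given above.

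Rank by −log10 q within each list was lower in the knockout for 433 of 443 members (97.7%), against 43.7% of the other pairs. The members had a median percentile of 27.7 among wild-type regions and of 18.7 among knockout regions, and that of the other pairs was 59.4 and 59.8. For the 413 pairs of higher knockout fold it was 19.4 and 32.3. In members the median difference in percentile, knockout minus wild type, was −7.97 points, with quartiles of −11.1 and −5.79. For the 27 members with the lowest pileup ratios the median percentile was 61.3 in wild type and 22.3 in the knockout. The largest difference was −72.1 points at chr3:50328748-50329878, from the 96.1 percentile in wild type, followed by −63.8 at chr19:44506726-44507903 and −61.4 at chr17:40949890-40950780. In the other direction, chr11:79148288-79149030 ranked 12.4 points higher in the knockout.

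Width, which the rule did not use directly, was also compared. Members were narrower than the other pairs in wild type, with a median of 562 bp (quartiles 363 and 783) against 1034 bp. The 413 pairs of higher knockout fold were narrow as well, with a wild-type median of 514 bp. The knockout region was narrower than its wild-type partner in 222 of 443 members (50.1%, 45.4 to 54.9%), against 14.9% (14.3 to 15.5%) of the other pairs. The median width ratio was 0.998 in members and 1.06 in the others, and 1.26 in the 413 pairs of higher knockout fold. In classes of wild-type width up to 500 bp, 500 to 1000 bp and above 1000 bp, 50.5%, 49.8% and 50.0% of members were narrower in the knockout. Among the other pairs these shares were 11.9%, 12.8% and 17.0%, and the shares differed in the same direction in each of these 3 classes. By wild-type pileup the order of the median width ratios was not uniform. Members were below the others in the lowest 5 deciles, with 0.968 against 1.19 in the lowest. They were above the others in the sixth decile, with 1.16 in 13 members against 1.06, and in deciles 7, 8 and 10, which held 6, 3 and 3 members. By deciles of wild-type width they were also above the others in the 3 widest, which held 7, 3 and 1 members. Width and fold come from the same reads and the same call, and their relation was not tested.

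**Figure D4:**
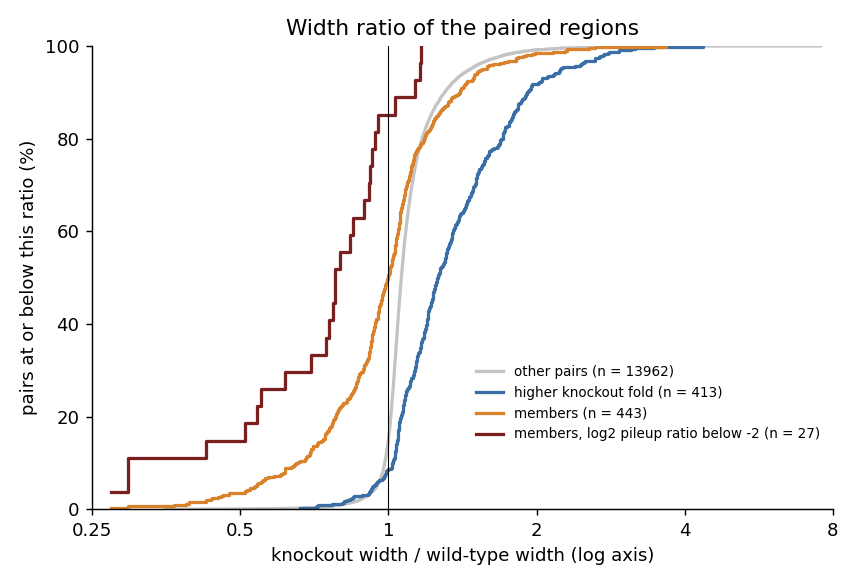
Cumulative share of pairs (y axis, %) by the ratio of knockout to wild-type region width (x axis, log axis). Below a ratio of 1 lie 50.1% of the members, 14.9% of the other pairs and 85.2% of the 27 members with a log2 pileup ratio below −2.

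The knockout region was shorter at both ends in 128 members (28.9%) and at 1 end only in 196 (44.2%). In the other pairs these shares were 4.11% and 32.9%. Among the 27 members with the lowest pileup ratios, 23 were narrower in the knockout and 13 were shorter at both ends, and the median width ratio was 0.780. The narrowest remainder was at chr2:26915629-26916728, where 1100 bp in wild type corresponded to 301 bp in the knockout, mostly because the end lay 753 bp further in. At chr2:100720776-100721828 the widths were 1053 and 311 bp, and at chr12:133656981-133657930 they were 950 and 281 bp with the start 554 bp further in.

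Summits stayed close in most members. The median distance between the wild-type and knockout summit was 26 bp (quartiles 10 and 56) in members and 16 bp (7 and 35) in the other pairs. In the 413 pairs of higher knockout fold it was 27 bp (11 and 55), close to that of the members. A distance of 200 bp or more occurred in 44 members (9.93%, 7.31 to 13.1%) and in 7.05% (6.64 to 7.49%) of the others, and the intervals overlap. Among the 413 pairs of higher knockout fold the share was 9.69%. Within the lowest decile of wild-type pileup, the medians were 29 bp in members and 31 bp in the others, and in the second decile 20 and 23 bp. These 2 deciles held 293 of the 443 members. The order varied in the stronger deciles, with medians of 15 bp in 27 members and 17 bp in the others in the fourth decile and of 25 bp in 28 members and 16 bp in the others in the fifth. By class of wild-type width the median was larger in members throughout: 19 against 16 bp up to 500 bp, 31 against 17 bp from 500 to 1000 bp, and 33 against 16 bp above 1000 bp. The largest distances were 720 bp at chr3:12328792-12329838, where the knockout region was wider, 678 bp at chr4:1581052-1582268 and 635 bp at chr3:29322082-29323417.

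Members were found on all of chromosomes 1 to 22. The share was highest on chromosome 19, with 51 of 1118 pairs (4.56%, 3.42 to 5.95%), and next on chromosome 3, with 37 of 840 (4.4%, 3.12 to 6.02%). It was lowest on chromosome 18, with 2 of 210 pairs (0.952%, 0.116 to 3.40%), on chromosome 14, with 5 of 481 (1.04%, 0.338 to 2.41%), and on chromosome 15, with 6 of 462 (1.30%, 0.478 to 2.81%). Toward higher fold chromosome 19 held 25 pairs (2.24%) and chromosome 3 held 15 (1.79%), both below the 2.87% of all pairs. Of the 27 members with the lowest pileup ratios, taken from all 14405 pairs, 5 were among the 1118 pairs of chromosome 19. A further 5 were among the 975 pairs of chromosome 2, and 3 among the 1494 of chromosome 1. On chromosome 19 the members were densest from 40 to 50 Mb, where 19 of 250 pairs (7.6%, 4.64 to 11.6%) were members. The shares were 5.34% (2.18 to 10.7%) from 30 to 40 Mb and 4.94% (2.58 to 8.47%) from 0 to 10 Mb, with intervals that overlap that of the densest stretch. From 10 to 20 Mb the share was 2.65%, from 50 to 60 Mb it was 3.03%, and from 20 to 30 Mb none of 32 pairs was a member.

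**Figure D5:**
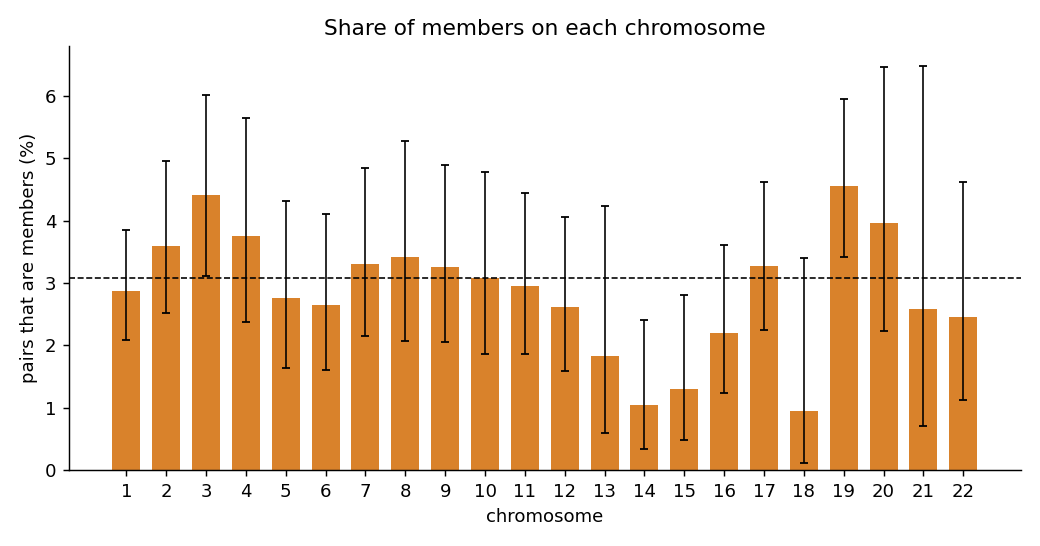
Share of pairs that are members (y axis, %) on each of chromosomes 1 to 22 (x axis) with exact 95% intervals. The dashed line is the share over all pairs, 3.08%, and the highest bar is that of chromosome 19 at 4.56%.

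The members were for the most part single regions. Of 443, 36 (8.13%, 5.76 to 11.1%) were next to another member in the order of pairs along a chromosome, while 6.0% (5.61 to 6.41%) of the other pairs were next to a member. Within 1 Mb, 40.4% of members and 43.3% of the other pairs had another member. Joining members with gaps of up to 100 kb gave 394 singles, 23 groups of 2 and 1 group of 3. Another member lay within 100 kb of 11.1% (8.30 to 14.4%) of members. For the other pairs a member lay that close in 8.71% (8.25 to 9.19%), and the intervals overlap. The group of 3 lay on chromosome 1 from 145469763 to 145589488 and took in 7 pairs. Its members had pileups of 251 in wild type and 292 in the knockout, of 68 and 69, and of 26 and 24, with log2 ratios of −0.68, −0.87 and −1.01. The groups of 2 with the lowest ratios were that on chromosome 19 from 44645287 to 44712146, one on chromosome 19 from 58609226 to 58666485, one on chromosome 3 from 38005930 to 38036150 and one on chromosome 4 from 132651219 to 132671023. The latter 3 were weak, with wild-type pileups between 26 and 97 fragments and knockout pileups between 25 and 81. Across members of any strength, 182 other pairs within 10 kb of a member had a median log2 pileup ratio of 0.10.

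The cut fell within a continuous range of values. Just inside it were 2 regions with a centred ratio of 0.75 and the same counts, 24 fragments in wild type and 31 in the knockout, at chr2:241172530-241172760 and chr18:24155100-24155536, and chr9:34701437-34701864 with 37 and 44. Just outside, at 0.751, were chr4:30718776-30719210 with 50 and 90 fragments, chr9:93955438-93956078 with 33 and 29, and chr3:12851351-12851852 with 87 and 95. Among the pairs with a log2 pileup ratio below −2, 3 were no members: chr7:12609871-12611466 with 197 and 50 fragments and a centred fold ratio of 0.774, chr7:63766954-63768488 with 214 and 62 and a ratio of 0.996, and chr12:65672105-65673467 with 325 and 150 and a ratio of 0.918. The log2 rate ratios of these 3 were −2.72, −2.93 and −2.0, beside log2 pileup ratios of −2.87, −2.68 and −2.01.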

How the data were processed

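Peak lists from 2 H3K4me3 ChIP-seq libraries, 1 per genotype, were analysed. Bowtie2, SAMtools 1.12, MACS2 and deepTools and the builds GRCh37 and hg19 are named per the submitters' processing notes. Peak caller settings and a control library are not given in the sources used here. Per the labels' protocols, cells were crosslinked with formaldehyde and sonicated. The deposited lists have the 10-column layout of MACS2, without a header. Column 7 was taken as the authors' fold of summit pileup over local rate, and columns 8 and 9 as −log10 p and −log10 q (a p-value and a q-value per region), also computed by the authors. The deposited score was not used. No scaling between the lists is stated, hence the centring on the median ratio of all pairs.

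Pileup and local rate were recovered by solving for the whole-number pileup that gives both the fold and the Poisson −log10 p. Over 20567 wild-type regions the solved p had a relative error of at most 1.76e-05, and over 20509 knockout regions of at most 2.67e-05. The recovery and the rule were tested on simulated data. Read totals were not used here. The 95% intervals on shares are Clopper-Pearson and hold counting error alone. The pairing was checked with bedtools 2.31.1. Other software was scipy 1.17.1, pandas 2.3.3, numpy 2.4.6 and matplotlib 3.10.9 under Python 3.11.15.

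Regions were named by rule: the 12 members of lowest centred ratio, the 8 of highest wild-type −log10 q, the 5 groups with most members within 100 kb, and 3 pairs on either side of the cut. Members and lists were chosen with earlier results of these data known. The chromosome 19 stretch and the neighbours on chromosomes 7 and 19 were picked with their values in view. So were the log2 threshold of −2 and the regions named for width, summit distance or a higher local rate.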

Additional observations from a re-analysis of the deposited data

Results flagged for a closer look

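Some kinds of regions outside the comparisons also carried signal, and are given as values. On chromosome X, 13 of 506 pairs that met the same conditions were at or below the cut, a share of 2.57% (95% interval 1.37 to 4.35%). On chromosomes 1 to 22, a further 214 pairs had a centred ratio of 0.75 or less and a wild-type −log10 q of 10 or more, and were left out because their knockout −log10 q was under 10. Their wild-type pileup had a median of 20 fragments (16 to 189). Finally, 210 wild-type regions with a −log10 q of 10 or more had no overlapping knockout region, with a median pileup of 23 fragments (16 to 351). The set described above thus leaves out the regions with the least knockout signal. It also leaves out 1921 of the 16767 wild-type regions with a −log10 q of 10 or more, because their overlaps were not one-to-one.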

How the results depend on the processing

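No paired analysis was possible because there was 1 library of wild-type cells and 1 of knockout cells, so none could be left out either. Alternatives with gene positions or motifs were not run, since the gene table is of another build. The 443 members (3.08%) became 632 (4.11%) with a minimum −log10 q of 5, 251 (1.90%) with 20, 284 (1.97%) at a cut of 0.70, 730 (5.07%) at 0.80, 580 (4.03%) without centring and 1404 (9.75%) when pileup was taken in place of fold. That last list held 370 of the 443, or 83.5% of the members and 26.4% of its own regions. Centring on each chromosome shared 436 members and a reciprocal overlap of 50% shared 415. The median width ratio of 0.998 became 0.967 and 1.03 with a minimum of 5 and 20, 0.954 and 1.04 at cuts of 0.70 and 0.80, and 1.03 by pileup. The median wild-type percentile of 27.7 became 23.5 and 34.0 with a minimum of 5 and 20, 29.6 at a cut of 0.80 and 40.0 by pileup. The share of members next to another, 8.13%, became 5.63% at 0.70, 11.5% at 0.80, 11.2% without centring and 35.1% by pileup. The median log2 pileup ratio of −0.73 became −0.67 with a minimum of 20, −0.84 at 0.70, −0.60 at 0.80 and −0.60 by pileup. Without centring it became 0.22, since uncentred ratios contain the median pileup ratio of 1.86. The median log2 rate ratio of 0.085 became −0.38 by pileup. For the other values that moved the cause was not tested. By pileup the share of members was highest on chromosomes 8 (35.4% of pairs) and 9 (25.7%), where the median log2 pileup ratio of all pairs was −0.35 and −0.27. By fold the shares there were 3.41% and 3.25%. The 27 members with a log2 pileup ratio below −2 became 26 with centring on each chromosome and 37 when the ratio of genome background rates was used, both alternatives added after seeing the data. With the minimum −log10 q of 10, the lowest pileup among members was 17 fragments in wild type and 23 in the knockout. In the other pairs it was 16 and 23. The part of depth in these values was not tested.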
